A study of Mus musculus with 6 samples.

Results

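The replication fork polymerases and clamp are described here through 10 genes, *Pola1*, *Pola2*, *Prim1*, *Prim2*, *Pcna*, *Rfc4*, *Pold1*, *Pole*, *Fen1* and *Lig1*, out of the 30315 genes measured. They were selected by gene name for their role at the fork, with earlier results of these data known. RNA-Seq was performed on primary renal tubular epithelial cells of C57BL/6 mice in 6 libraries. In 3 libraries *Sox9* had been targeted with the small interfering RNA siSox9, and in the other 3 the cells had been given siNC, the control siRNA. Every library came from cells that were transfected 12 h before hypoxia/reoxygenation (H/R), an injury model in culture, with 6 h at 1.0% oxygen in glucose-free medium and then 18 h of reoxygenation. All groups therefore carry the injury, and no cells without H/R were compared. The labels do not say that replicates were separate cultures or animals, so the p-values measure the spread between these samples, which may be technical.

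DNA is copied at forks where the parental strands are opened. The primase subunits PRIM1 and PRIM2 work in a complex with DNA polymerase α, made of POLA1 and POLA2, and start each new strand with a short RNA-DNA primer. The RFC complex, which includes RFC4, then loads the ring-shaped clamp PCNA, which holds polymerases δ and ε to the template. Polymerase ε mainly extends the leading strand and polymerase δ the lagging strand, and FEN1 and LIG1 trim and seal the lagging-strand fragments. Tubular cells divide little in the healthy kidney and enter the cell cycle after injury, and PCNA is widely stained as a mark of cells that are dividing or repairing DNA.

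Genes of the fork are known targets of E2F and NF-Y factors, the second of which binds CCAAT, and the upstream sequences of the 3 members with such a match in the 150 bases before the start are shown for that reason. They are from RefSeq (GRCm38.p6), run 5′ to 3′ on the strand of the gene and end at the base before the start. Capitals mark the E2F-type letters (TTTCCCGC, TTTCGCGC, TTTGCCGC or TTTGGCGC) or CCAAT, on either strand, so that ATTGG is CCAAT read on the opposite strand and GCGCCAAA is TTTGGCGC. The positions are chr2:132253181-132253330 on the - strand for *Pcna*, chr10:128015065-128015214 on the + strand for *Prim1* and chrX:93632156-93632305 on the - strand for *Pola1*. Starts here are those of RefSeq and can differ from the gene positions given below for each member. The listed *Pcna* gene runs to 132253314, and the listed *Prim1* gene begins at 128015168. Part of the *Pcna* and *Prim1* sequences, with the CCAAT match of each, thus lies inside the gene as listed.
Pcna: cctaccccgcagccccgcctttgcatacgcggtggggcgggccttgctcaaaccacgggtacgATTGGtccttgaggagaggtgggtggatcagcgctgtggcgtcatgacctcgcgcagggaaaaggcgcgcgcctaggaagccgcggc
Prim1: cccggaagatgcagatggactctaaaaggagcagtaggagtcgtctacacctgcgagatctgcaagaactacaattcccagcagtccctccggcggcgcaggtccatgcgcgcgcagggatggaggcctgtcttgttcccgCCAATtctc
Pola1: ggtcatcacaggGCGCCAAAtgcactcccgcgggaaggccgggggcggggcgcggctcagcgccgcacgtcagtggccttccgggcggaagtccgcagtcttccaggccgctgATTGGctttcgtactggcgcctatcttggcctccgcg

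In windows of 300 bases, 250 before and 50 after a start, 8 of the 10 members had 11 windows, since *Lig1* has 3 starts and *Fen1* has 2, and *Prim2* and *Pole* had none. E2F-type letters were found in windows of 3 members, at bases -138 to -131 of *Pola1*, at bases 27 to 34 of the second *Lig1* start and at bases 40 to 47 of *Pold1*, and in 2.27% of all 32851 windows of this length. CCAAT was found in 3 members, at -87 to -83 of *Pcna*, -9 to -5 of *Prim1* and -37 to -33 of *Pola1*, and in 37.4% of all windows. The GC box GGGCGG was found in 6 members and in 35.7% of all windows. The cell-cycle element TTTGAA was found in *Fen1* alone and in 17.9% of all windows, and the SOX-type letters ACAAAG or ACAATG were also found in *Fen1* alone and in 28.6% of all windows. *Pola1* was the member that held E2F-type letters, CCAAT and GC boxes in a single window. All motifs were searched on both strands, no matches in the members' windows overlap each other, and a match describes the letters only.

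**Figure D1:**
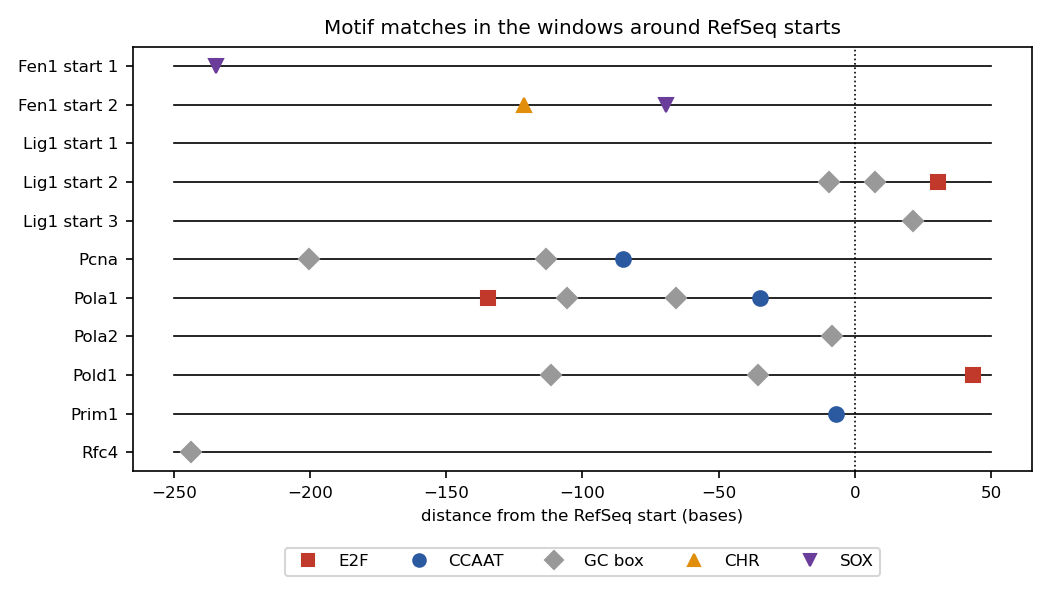
Motif matches in the 11 promoter windows of 8 members, drawn by distance in bases from the start (dotted line), with each marker a match of 1 motif on either strand and CHR standing for TTTGAA. E2F-type letters appear in *Pola1*, *Lig1* and *Pold1*, and CCAAT in *Pcna*, *Prim1* and *Pola1*.

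*Sox9*, the target of the siRNA, was measured at 8.87 ± 0.236 FPKM with siSox9 and at 26.0 ± 0.496 FPKM with siNC (SD, n = 3 each). FPKM is the read number scaled to exon length and to the size of the library. *Sox9* was at 34.2% of the control, and its log2 fold change was -1.45 ± 0.03 (SE; limma, adjusted p = 7.03e-06), where fold changes are on the scale of log2(FPKM + 1) and understate the change of genes with low values. Recovered library totals ran from 23893197 to 25725741 reads. Tubule epithelium markers summed to between 3758 and 3916 FPKM with siSox9 and between 3595 and 3796 FPKM with siNC, with 7 of 11 at a mean of at least 1 FPKM, and *Krt8*, *Krt18* and *Cdh1* were among them. The keratin *Krt8* alone made up 55.6% of this sum with siSox9 and 56.5% with siNC. The segment markers *Slc34a1*, *Aqp2*, *Aqp1* and *Umod* were below 1 FPKM, so no tubule segment is named by them. Fibroblast markers summed to 6.26 to 7.68 FPKM with siSox9 and 7.90 to 8.95 FPKM with siNC (1 of 6 in the table at a mean of at least 1 FPKM). Endothelial markers summed to 2.91 to 3.20 and 3.29 to 4.23 FPKM (1 of 5). Leukocyte markers summed to 12.2 to 13.4 and 12.7 to 13.3 FPKM (2 of 6). Of this sum, *Csf1r* made up 72.1% with siSox9 and 74% with siNC, at 9.38 and 9.66 FPKM. *Cdh16*, a tubule cadherin, was the marker that passed the main test, 0.36 higher on the log2 scale (limma, adjusted p = 0.000307). When all genes above 0 in a library were fitted, the endothelial marker *Emcn* also passed. It was at 0.664 FPKM with siSox9 and 1.08 FPKM with siNC, with a log2 fold change of -0.32 (limma, adjusted p = 0.0331). The fibroblast gene *Dcn* was near 0, at 0.00888 FPKM with siSox9 and 0.00703 FPKM with siNC. The fibroblast and endothelial sums were lower with siSox9 with no overlap. In mean, 4 fibroblast markers were lower and 2 higher, and 3 endothelial markers were lower and 2 higher. *Thy1* (41.7% lower), *Col3a1* (28.6%), *Pdgfrb* (22.6%), *Emcn* (38.6%) and *Pecam1* (15.7%) were lower with no overlap, at levels too low for the main test. The groups overlapped in *Col1a1*, *Cdh5* and the genes higher in mean, *Dcn*, *Pdgfra*, *Kdr* and *Tie1*. *Col1a1* made up 81.5% of the fibroblast sum with siSox9 and 79.4% with siNC and did not pass the test itself (adjusted p = 0.118). The part of these markers in the results that follow was not tested.

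With siSox9, all 9 members that reached a mean of 1 FPKM were lower at an adjusted p under 0.05, and the 10th, *Fen1*, was below that level and was not tested. Their log2 fold changes lay between -0.49 and -0.21 with a median of -0.41, which for mean FPKM was a fall of 14.8% to 36.9%. Of all 12009 genes tested, 3650 (30.4%) passed the same threshold in either direction, 2118 (17.6%) were lower and 1532 (12.8%) were higher, and the median log2 fold change was -0.01. In each of the 10 members, *Fen1* included, the 3 siSox9 libraries were below the 3 siNC libraries, against 3138 (26.1%) of the genes tested. An exact two-sided permutation test gave p = 0.1 for each member, the smallest that 3 libraries against 3 allow. In bulk samples, fewer cells in S phase and less of these RNAs per cell cannot be told apart.

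**Figure D2:**
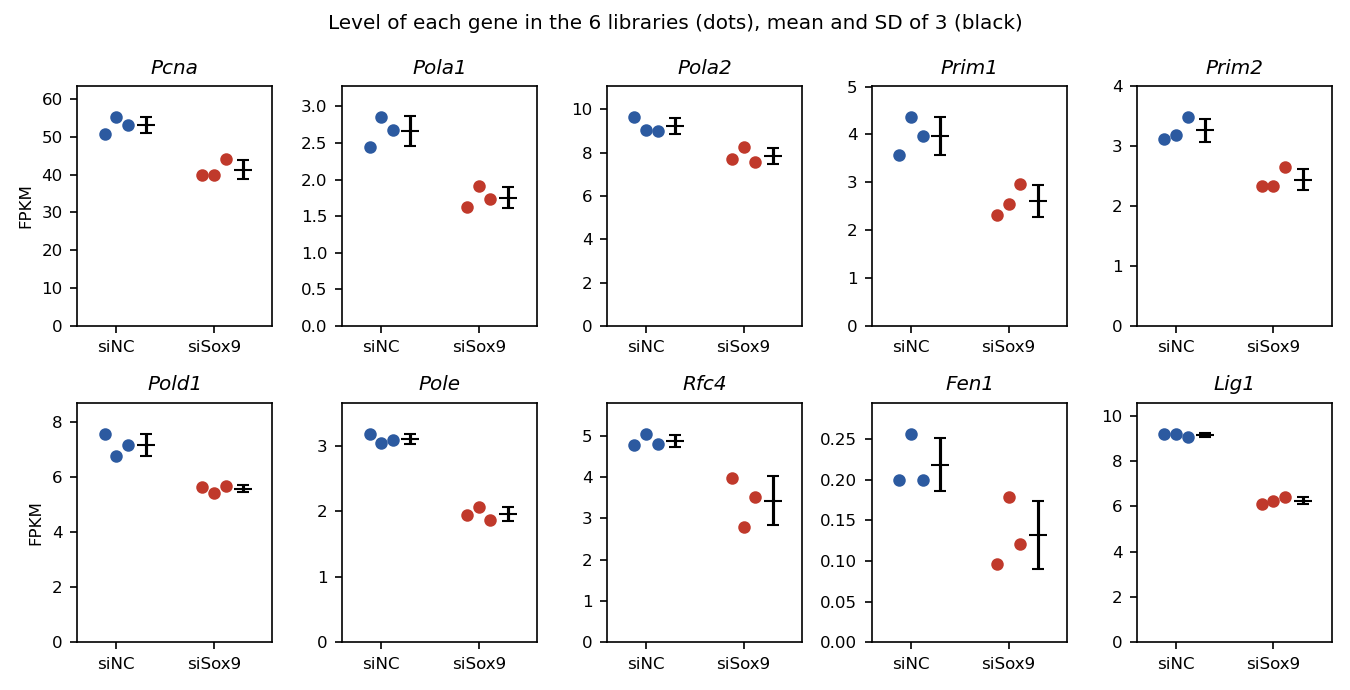
FPKM of the 10 members in each library, with 1 panel a gene, coloured points for the 3 libraries of each group, and the group mean with its SD in black. In each panel the 3 siSox9 points lie below the 3 siNC points, and *Fen1* is at 0.0963 to 0.257 FPKM.

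The catalytic subunit of polymerase α, *Pola1* (ENSMUSG00000006678, chromosome X from 93304767 to 93632155, - strand), was at 1.62, 1.91 and 1.73 FPKM in siSox9 replicates 1 to 3 and at 2.45, 2.85 and 2.68 FPKM in siNC replicates 1 to 3. The highest siSox9 library was well below the lowest siNC library. Its mean was 34.1% lower, at 1.75 ± 0.148 against 2.66 ± 0.204 FPKM (SD, n = 3), and the log2 fold change was -0.41 ± 0.07 (SE; limma, adjusted p = 0.0045). The values rest on 364 to 428 reads per siSox9 library and 535 to 607 reads per siNC library.

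The accessory subunit *Pola2* (ENSMUSG00000024833, chromosome 19 from 5940543 to 5964206, - strand) was at 7.70, 8.28 and 7.59 FPKM with siSox9 and at 9.63, 9.04 and 8.98 FPKM with siNC. The groups were close, with siSox9 replicate 2 nearest to the controls, but did not overlap. The mean fell by 14.8% to 7.86 ± 0.371 from 9.22 ± 0.361 FPKM, which was the smallest fall of the 10, and limma gave -0.21 ± 0.05 on the log2 scale (adjusted p = 0.0139). This call did not hold when FPKM values were scaled to the same sum in every library, called TPM here (adjusted p = 0.0931). It also did not hold without siSox9 replicate 1 (adjusted p = 0.0502). The range of its adjusted p over the alternatives was 0.00178 to 0.0931. The 0.00178 came from limma voom on rounded reads, which for *Pola2* had not come out whole.

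The catalytic primase subunit *Prim1* (ENSMUSG00000025395, chromosome 10 from 128015168 to 128030037, + strand), which makes the RNA part of the primer, was at 2.32, 2.55 and 2.97 FPKM with siSox9 and at 3.56, 4.36 and 3.96 FPKM with siNC. Values varied within each group, yet the highest siSox9 library stayed under the lowest control. The mean was 34.1% lower, at 2.61 ± 0.327 against 3.96 ± 0.398 FPKM, and the log2 fold change was -0.46 ± 0.09 (limma, adjusted p = 0.00708). Reads ran from 231 to 274 with siSox9 and from 342 to 407 with siNC.

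The regulatory primase subunit *Prim2* (ENSMUSG00000026134, chromosome 1 from 33453810 to 33669795, - strand) was at 2.34, 2.33 and 2.65 FPKM with siSox9 and at 3.13, 3.19 and 3.48 FPKM with siNC. All siSox9 libraries were below all controls, and replicate 3 was the highest in each group. The mean was 25.3% lower, at 2.44 ± 0.18 against 3.27 ± 0.189 FPKM, and limma gave -0.31 ± 0.06 on the log2 scale (adjusted p = 0.00836).

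The sliding clamp *Pcna* (ENSMUSG00000027342, chromosome 2 from 132249162 to 132253314, - strand) was the most abundant member in every library, at 39.99, 39.81 and 44.15 FPKM with siSox9 and at 50.83, 55.13 and 53.17 FPKM with siNC. The highest siSox9 library, replicate 3, was below the lowest control, replicate 1. The mean was 22.1% lower, at 41.3 ± 2.46 against 53.0 ± 2.15 FPKM, and limma gave -0.35 ± 0.05 on the log2 scale (adjusted p = 0.00243). It was also the member with the most reads, 2426 to 2532 with siSox9 and 3029 to 3195 with siNC. A processed copy on chromosome 19, *Pcna-ps2*, was at 0.307 ± 0.0374 FPKM with siSox9 and 0.474 ± 0.0236 FPKM with siNC, and reads that match both cannot be assigned with certainty.

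A small subunit of the clamp loader, *Rfc4* (ENSMUSG00000022881, chromosome 16 from 23113943 to 23127737, - strand), was at 3.98, 2.80 and 3.52 FPKM with siSox9 and at 4.78, 5.05 and 4.80 FPKM with siNC. The siSox9 libraries spread widely, with replicate 2 the lowest, while the controls were close together. The mean was 29.6% lower, at 3.43 ± 0.595 against 4.88 ± 0.15 FPKM, and limma gave -0.42 ± 0.09 on the log2 scale (adjusted p = 0.0156). This call did not hold when all genes were tested (adjusted p = 0.0606) or without siNC replicate 2 (adjusted p = 0.0505), within a range of 0.00626 to 0.0606 over the alternatives. The 0.00626 came from limma voom on rounded reads, which for *Rfc4* had not come out whole. Of its 1533 exon bases, 194 (12.7%) are shared with *Eif4a2* on the opposite strand.

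*Pold1* (ENSMUSG00000038644, chromosome 7 from 44532746 to 44548849, - strand), the catalytic subunit of polymerase δ, was at 5.64, 5.43 and 5.67 FPKM with siSox9 and at 7.57, 6.78 and 7.16 FPKM with siNC. The siSox9 libraries were nearly equal and below every control. The mean was 22.1% lower, at 5.58 ± 0.13 against 7.17 ± 0.396 FPKM, and limma gave -0.31 ± 0.05 on the log2 scale (adjusted p = 0.00288).

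*Pole* (ENSMUSG00000007080, chromosome 5 from 110286306 to 110337474, + strand), the catalytic subunit of polymerase ε, was at 1.94, 2.08 and 1.87 FPKM with siSox9 and at 3.19, 3.05 and 3.09 FPKM with siNC. The gap between the groups was several times the spread within them. The mean was 36.9% lower, at 1.96 ± 0.103 against 3.11 ± 0.0703 FPKM, and limma gave -0.47 ± 0.05 on the log2 scale (adjusted p = 0.000774). Although its level was low, its long exons gave 499 to 588 reads with siSox9 and 822 to 883 reads with siNC.

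*Lig1* (ENSMUSG00000056394, chromosome 7 from 13277283 to 13311433, + strand), the ligase that seals lagging-strand fragments, was at 6.08, 6.26 and 6.42 FPKM with siSox9 and at 9.20, 9.19 and 9.07 FPKM with siNC. Both groups were tight and far apart. The mean was 31.7% lower, at 6.25 ± 0.17 against 9.15 ± 0.0721 FPKM, and the log2 fold change of -0.49 ± 0.04 (limma, adjusted p = 0.000168) was the lowest of the tested members on this scale, at percentile 2.73 of all genes tested. With a pseudocount of 0.1 *Lig1* was at -0.54 and *Pole* at -0.64, and with limma voom they were at -0.55 and -0.66, so the order among members depends on the scale. *Pola2* was the highest of them, at percentile 15.6. Of the 4268 exon bases of *Lig1*, 247 (5.79%) are shared with *Zswim9*.

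The flap endonuclease *Fen1* (ENSMUSG00000024742, chromosome 19 from 10199132 to 10204169, - strand) was listed at 0.0963, 0.179 and 0.121 FPKM with siSox9 and at 0.20, 0.257 and 0.199 FPKM with siNC. Each control was above each siSox9 library, but these values stand for 6, 11 and 7 reads against 12, 15 and 12 reads. The means were 0.132 ± 0.0424 and 0.219 ± 0.0329 FPKM. When all 28122 genes above 0 were fitted, of which 2700 (9.6%) passed the threshold, its log2 fold change was -0.11 with an adjusted p of 0.179 by limma, and limma voom on recovered reads gave -0.72 ± 0.42 with an adjusted p of 0.328. A difference in *Fen1* was thus not detectable at these read numbers. Of its 2422 exon bases, 1909 (78.8%) are shared with the antisense gene *Gm10143* and 130 (5.37%) with *Tmem258*, and whether strand was used in counting is not stated, so the level of *Fen1* is uncertain. *Gm10143* itself had 7 to 10 reads with siSox9 and 7 to 14 reads with siNC.

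FPKM is scaled to length, so levels can be set side by side between genes as far as the exon lengths used hold. For *Pola2* and *Rfc4* that length is not known, since their values did not come out as whole reads. The place of *Fen1* is uncertain, since 383 of its 2422 exon bases are free of other genes' exons. In the siNC libraries the order of mean FPKM from high to low was *Pcna*, *Pola2*, *Lig1*, *Pold1*, *Rfc4*, *Prim1*, *Prim2*, *Pole*, *Pola1* and *Fen1*. Neighbours whose ranges overlapped in siNC were *Pola2* with *Lig1* and *Prim2* with *Pole*. The order was the same with siSox9, where *Rfc4* with *Prim1*, *Prim1* with *Prim2* and *Pole* with *Pola1* overlapped.

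Of the 10 partner subunits of polymerases δ and ε and of RFC, all of them tested, 6 fell, 1 rose and 3 did not pass the test, and their median on the log2 scale was -0.26, with all genes at -0.01. Of all genes tested, 17.6% were lower and 12.8% higher. In polymerase ε, the second subunit *Pole2* fell by 0.39 ± 0.06 on the log2 scale (adjusted p = 0.00291), from 2.23 to 1.47 FPKM. The histone-fold subunits *Pole3* and *Pole4*, at 20.6 and 9.76 FPKM with siSox9 and 21.96 and 10.54 FPKM with siNC, did not pass (adjusted p = 0.219 and 0.304). In polymerase δ, *Pold3* fell by 0.36 ± 0.04 (adjusted p = 0.000842) and *Pold2* fell by 0.26 ± 0.08 (adjusted p = 0.0364) on the log2 scale. The call of *Pold2* was lost in 6 of 14 alternatives, which were no filter (adjusted p = 0.111), TPM (0.103) and leaving out siSox9 replicate 2 (0.0961), siSox9 replicate 3 (0.0969), siNC replicate 1 (0.0771) or siNC replicate 3 (0.081), and 5 partner subunits were then lower. Its adjusted p ranged from 0.0154 to 0.111.

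The smallest subunit of polymerase δ, *Pold4*, went the other way. It was at 26.8, 27.6 and 31.3 FPKM with siSox9 and at 23.0, 21.7 and 20.1 FPKM with siNC. Every siSox9 library was above every control, and the log2 fold change was 0.39 ± 0.07 (limma, adjusted p = 0.00607). Among the clamp loader subunits, *Rfc5* fell by 0.46 ± 0.06 (adjusted p = 0.00123), *Rfc3* by 0.29 ± 0.06 (adjusted p = 0.01) and *Rfc2* by 0.26 ± 0.05 (adjusted p = 0.0106) on the log2 scale. The large subunit *Rfc1* was at 9.36 against 10.1 FPKM and did not pass (adjusted p = 0.0675).

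**Figure D3:**
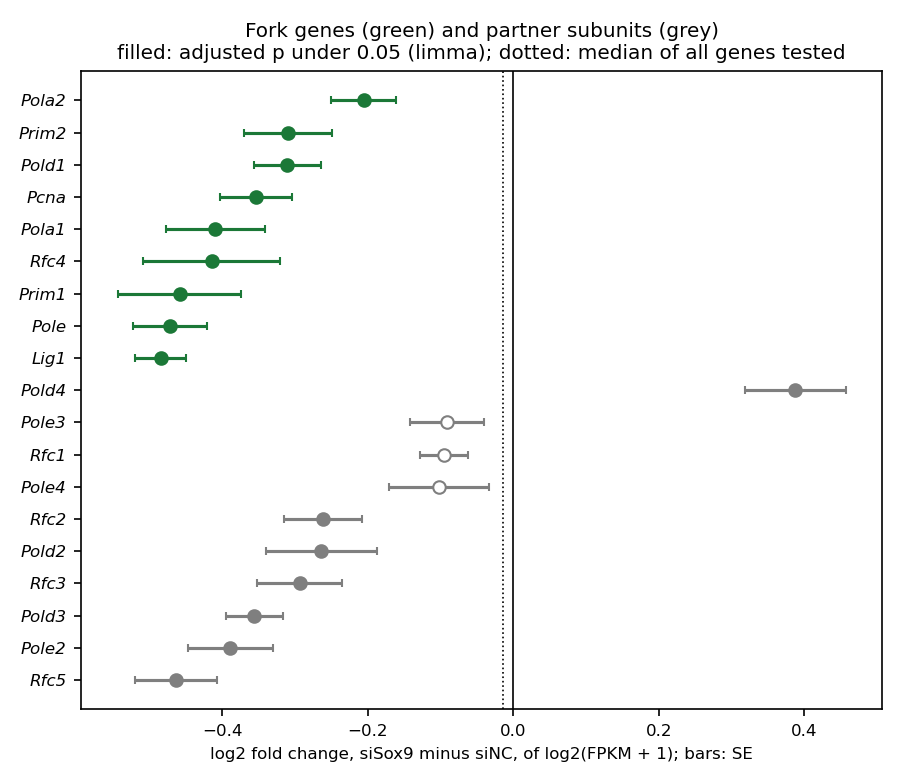
Log2 fold changes (siSox9 minus siNC, log2(FPKM + 1) scale) of the 9 tested members in green and the 10 partner subunits in grey, with bars for the SE, filled points for an adjusted p under 0.05 and a dotted line at the median of all genes tested. The members lie between -0.49 and -0.21, and *Pold4* at 0.39 is the partner subunit above 0.

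Ratios of FPKM within a library compare members with each other and with their partners, and 18 were tested. In 7 of them the groups did not overlap, each with an exact two-sided permutation p of 0.1, the smallest possible here, and an adjusted p of 0.257, so none could pass. *Pold1* to *Pole* was 2.90, 2.62 and 3.03 with siSox9 and 2.38, 2.22 and 2.32 with siNC, so every siSox9 library was higher. *Pola1* to *Pola2* was lower, at 0.223 ± 0.0112 against 0.289 ± 0.0319 (SD, n = 3). *Pold1* to *Pold4* had the largest difference of the 18, -0.76 on the log2 scale, at 0.196 ± 0.0147 against 0.333 ± 0.0223.

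The ratio of *Pole* to *Pole3* was 0.0959 ± 0.0102 with siSox9 and 0.142 ± 0.0101 with siNC, and that of *Pole* to *Pole4* was 0.203 ± 0.0246 and 0.296 ± 0.0274. *Rfc4* to *Rfc1* was 0.368 ± 0.0717 and 0.484 ± 0.0107, and *Prim1* to *Prim2* was 1.07 ± 0.0673 and 1.21 ± 0.13. The groups overlapped in the other 11, among them *Prim1* to *Pola1* (log2 difference -0.003), *Pole* to *Pole2* (-0.06), *Pold1* to *Pold2* (-0.07), *Pold1* to *Pold3* (0.05) and *Pcna* to *Rfc4* (0.16).

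**Figure D4:**
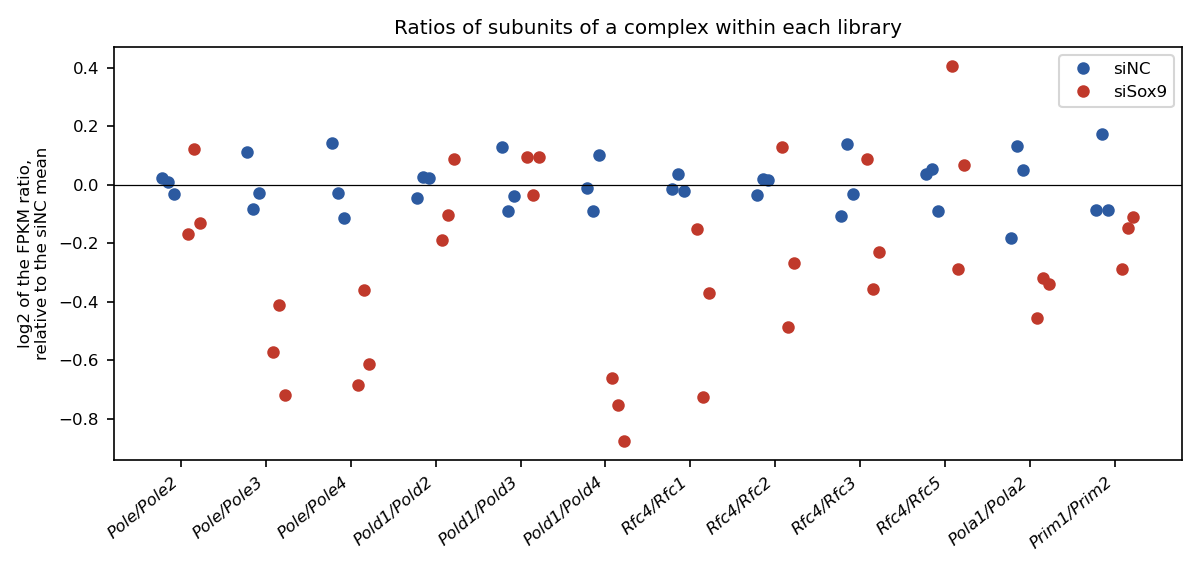
Log2 of the FPKM ratio of subunits of the same complex in each library, relative to the mean of siNC, with 3 points for each group. *Pold1* to *Pold4* and *Pole* to *Pole3* are apart between siSox9 and siNC, while *Pole* to *Pole2* and *Rfc4* to *Rfc5* overlap.

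Of 19 other fork proteins, 18 were tested, 9 fell, 3 rose and 6 did not pass, with a median log2 fold change of -0.21. Over all genes tested, 17.6% were lower and 12.8% higher, and the share of this list that rose was near the latter. *Clspn*, a mediator of the checkpoint at stalled forks, fell by 0.39 (adjusted p = 0.00201), *Wdhd1*, which ties polymerase α to the helicase, by 0.35 (adjusted p = 0.0103) and *Dna2*, a nuclease that trims long flaps, by 0.35 (adjusted p = 0.0112) on the log2 scale. *Ctc1*, of the CST complex that works with polymerase α at telomeres, rose by 0.32 (adjusted p = 0.00193), and *Chtf8*, of an alternative clamp loader, rose by 0.16 (adjusted p = 0.00525). The third to rise was *Top1*, by 0.14 (adjusted p = 0.0185), which is named after its value was seen. Its call was lost with TPM (adjusted p = 0.0633) and without siSox9 replicate 2 (0.0762), siNC replicate 2 (0.0565) or siNC replicate 3 (0.0545), in a range of 0.00531 to 0.0762.

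Of 15 PCNA-binding proteins, all tested, 10 fell, 1 rose and 4 did not pass, with a median of -0.30. The shares over all genes tested were 17.6% lower and 12.8% higher. *Pclaf*, the PCNA-associated factor, fell by 0.59 (adjusted p = 0.000502), from 11.6 ± 0.773 to 7.36 ± 0.392 FPKM. *Uhrf1*, which brings DNMT1 to newly copied DNA, and *Chaf1a*, of the chromatin assembly factor CAF-1, each fell by 0.56 (adjusted p = 0.000141 and 0.000235). *Cdkn1a*, which encodes the cell-cycle inhibitor p21 that binds PCNA, rose from 229.6 ± 2.68 to 294.5 ± 2.67 FPKM, a log2 fold change of 0.36 (adjusted p = 0.000192). *Shprh* was at 3.54 against 3.57 FPKM (adjusted p = 0.919).

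The list called licensing genes here holds 16 genes, for the licensing of origins and for the start of the helicase, among them *Cdc45* and the *Gins* genes. All were tested, and 12 fell, 0 rose and 4 did not pass, with a median of -0.32, beside 17.6% lower and 12.8% higher over all genes tested. At an unadjusted p under 0.05, 0 of 16 were higher by limma and 0 by limma voom. *Cdc45*, which works with the helicase at the fork, fell by 0.58 (adjusted p = 0.00179), and the helicase subunits *Mcm5* and *Mcm2* fell by 0.47 (adjusted p = 0.000221) and 0.37 (adjusted p = 0.00138). *Gins4* (15.3 against 15.5 FPKM) and *Orc1* (1.45 against 1.67 FPKM) did not pass.

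The list called repair and mitochondrial polymerases and ligases served for comparison. It includes polymerases that copy past lesions, such as *Polh*, so it is not a list of genes that act only outside the fork. Of 18 such genes, 15 were tested, 2 fell, 0 rose and 13 did not pass, with a median of 0.01, and at an unadjusted p under 0.05, 0 were higher by limma and 0 by limma voom. *Polh*, a polymerase that copies past ultraviolet lesions, fell by 0.18 (adjusted p = 0.0172), and *Rev3l*, of polymerase ζ, fell by 0.17 (adjusted p = 0.0222) on the log2 scale. Both calls were lost with TPM (adjusted p = 0.086 and 0.138) and without siSox9 replicate 2 (0.0655 and 0.072), and that of *Rev3l* held in 5 of 13 alternatives, being lost also with no filter (0.0539), quantile normalization (0.0804) or the replicate block (0.0565) and without siSox9 replicate 1 (0.0715), siNC replicate 1 (0.057) or siNC replicate 2 (0.0661). *Mad2l2*, its partner, was at 3.81 against 4.25 FPKM (adjusted p = 0.0533), *Poll* at 5.14 against 4.61 FPKM (adjusted p = 0.32) and *Poli* at 2.21 against 1.96 FPKM (adjusted p = 0.303). Without overlap of the groups, 4 of the 15 were lower and 1 was higher, and 26.1% of all genes tested were lower in this way. *Polq*, under 1 FPKM on average and so not tested, was at 0.786 against 1.12 FPKM with no overlap. Fitted with all genes above 0, *Polq* had an adjusted p of 0.0628 by limma. The share called lower, 2 of 15, was near the 17.6% of all genes, while the 9 of 9 tested members were above it. The difference between these lists was not tested.

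**Figure D5:**
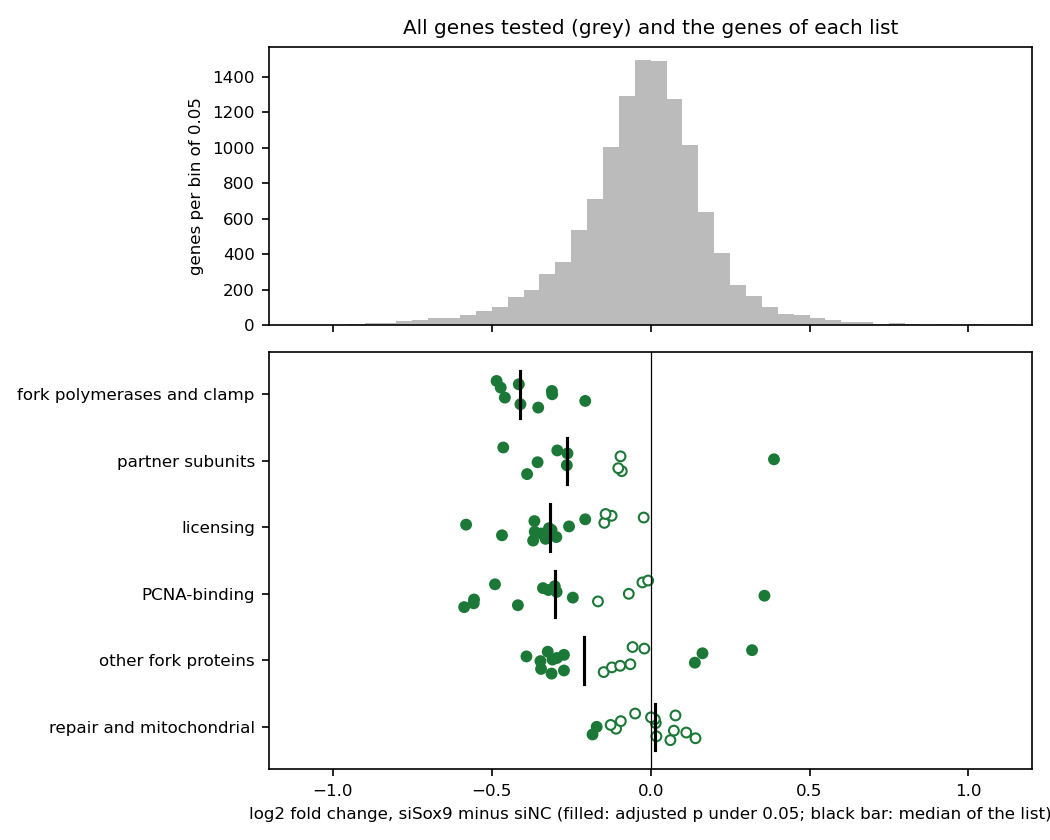
Top, number of genes per bin of log2 fold change (siSox9 minus siNC) over all genes tested, with genes beyond the axis not drawn. Bottom, each tested gene of the members and the other lists, with filled points for an adjusted p under 0.05 and a black bar at the median, which is -0.41 for the members and 0.01 for the repair and mitochondrial list.

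The 6 genes outside the 10 whose values followed the mean z-score of the 9 tested members most closely over the 6 libraries were *Tmx1* (Pearson r = 0.9995), *Oxct1* (0.9995), *Sumo3* (0.9993), *Eif4g2* (0.9992), *Nceh1* (0.9988) and *Plscr2* (0.9988). The points are 6 libraries that fall into the 2 groups, so r mostly reflects the gap between the groups. None of the 6 is in the replication lists, and their log2 fold changes ran from -0.87 for *Oxct1* to -0.15 for *Eif4g2*.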

How the data were processed

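RNA-Seq libraries of 3 siSox9 and 3 siNC samples were analysed. What the authors deposited were FPKM values for each gene. The submitters' processing notes name HISAT2 2.1.0, Bowtie2 2.2.3, TopHat2 and mm9, with no role or order given, while 93.3% of the 30246 listed genes found in GENCODE M21 have their GRCm38 position there. The counting tool and its annotation are not given in the sources used here. The columns taken as siSox9 are named for an siRNA other than the control, and the labels hold no other siRNA than siSox9 and siNC. Every per-sample column was used.

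The main test was limma 3.58.1 (lmFit and eBayes, trend; R 4.3.3) on log2(FPKM + 1). Genes whose mean over the 6 libraries was at least 1 FPKM entered the fit, and p-values were two-sided and adjusted by Benjamini-Hochberg over all of them, with a threshold of 0.05 and no replicate block. Whole reads were recovered with GENCODE M21 exon lengths, and 93.3% of values came out whole within 0.02 reads, though not those of *Pola2* and *Rfc4*. Limma voom used the rounded reads, also of genes whose values did not come out whole, such as *Pola2* and *Rfc4*. It called 2479 genes lower and 1762 higher. Ratios were tested with exact permutation tests, and promoter windows came from RefSeq. The limma fit was tested on simulated data. Correlations of deviations between same-numbered replicates were 0.065, -0.050 and 0.008, so no pairing by number was seen. With so few replicates this cannot show that same-numbered samples were prepared apart, and the labels do not say. The mean chi-square per gene between libraries was 1.86 to 6.80 within groups and 16.4 to 19.9 across them.

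The members and gene lists were chosen with earlier results of these data known. The genes named are the 10 members, *Sox9*, all partner subunits, the 3 lowest and 2 highest log2 fold changes of each other list and the 6 genes most like the members. Cell type markers, genes that overlap or copy a member, *Top1* and *Polq* are named outside this rule, and those among them singled out were chosen after their values were seen. The alternatives were a pseudocount of 0.1, no filter, at least 5 FPKM on average, TPM, quantile-normalized and median-centred values, limma voom, the replicate block and leaving out each replicate in turn. What is called TPM was FPKM scaled to the same sum in every library. That sum was the mean of the library sums, and not the usual TPM total. Other steps used Python 3.11.15 with scipy 1.17.1, numpy 2.4.6, matplotlib 3.10.9 and pandas 2.3.3.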

Additional observations from a re-analysis of the deposited data

How the results depend on the processing

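Among the 9 tested members, every log2 fold change stayed negative under each alternative in which the gene was tested. When a replicate was left out, 8 to 9 members were lower, and 1480 to 2089 of all 12009 genes tested. *Pola2* missed the threshold with TPM (-0.18, adjusted p = 0.0931) and *Rfc4* with no filter (-0.42, adjusted p = 0.0606); without a replicate they ranged from -0.24 to -0.18 and from -0.50 to -0.31. A minimum of 5 FPKM left fewer genes to test. It gave 4 of 4 tested members, 3 partner subunits, 3 other fork proteins, 6 PCNA-binding proteins, 1 repair gene and 1376 of all genes lower. How many genes were tested at this minimum is not given here, so these counts stand without a share over all genes. With no filter, 5 other fork proteins and 1 repair gene were lower. TPM gave 0 repair genes and 1342 of all 12009 genes tested lower, and quantile normalization gave 1 repair gene. Median-centring gave 1765 genes lower and 1959 higher, against 2118 and 1532. With the replicate block, 1 repair gene was lower instead of 2, the 9 members were still called, and 1889 of all genes were lower. Whether the replicate numbers pair the samples is not stated in the labels. Leaving out replicates, the counts ran from 5 to 8 for other fork proteins lower (5 without siSox9 replicate 2 or siNC replicate 3), 0 to 2 and 0 to 1 for repair genes lower and higher (0 lower without siSox9 replicate 2), and 944 to 1565 for all genes higher (944 without siSox9 replicate 2). For ratios, a pseudocount of 1 reversed *Fen1* to *Lig1* (0.38) and *Pcna* to *Fen1* (-0.25), and without a replicate *Prim1* to *Pola1* ran from -0.107 to 0.076 and *Rfc4* to *Rfc5* from -0.11 to 0.24. Of 23 called genes named outside the members, 19 kept their call under each alternative run, and *Pold2*, *Polh*, *Rev3l* and *Top1* did not. The log2 fold changes of *Shprh* and *Gins4*, not called, turned positive with TPM (0.015 and 0.006) and median-centring (0.019 and 0.005), that of *Shprh* also with quantile normalization (0.044), and without a replicate they ran from -0.033 to 0.021 and from -0.057 to 0.006. The cause of these shifts was not tested. *Fen1* had 6 to 15 reads a library, and whether depth or its overlapping genes set this was not tested.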
